A study of Homo sapiens with 24 samples.

Results

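The imprinted gene network was followed in U87-T cells that lack DAXX or ATRX. Its 10 members, PLAGL1, H19, IGF2, MEG3, DLK1, GRB10, PEG10, PEG3, MEST and NNAT, were picked by name with earlier results of these data known. The authors had already listed PLAGL1 among the top upregulated genes of both knockouts. All 10 had a row among the 57736 genes of the count table. The RNA-seq data hold 24 libraries in 8 groups of 3. The cells, U87-T, derive from a human glioblastoma line and were transduced with a TERT vector, so every group carries TERT. DAXX_KO and ATRX_KO are knockout lines of U87-T made with Cas9, each of them grown from 1 cell and known for ALT-like telomeres. The libraries are divided into a series for DAXX and a series for ATRX. In both, WT (U87-T) and KO cells were either left untreated (control) or given etoposide, a topoisomerase II poison that breaks DNA. The dose and time of etoposide for these libraries were not given in the sources used here. With 1 clone per knockout, an effect of the lost gene and a trait of the clone cannot be told apart. In bulk RNA, fewer cells that express a gene and less RNA per cell cannot be told apart either.

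An imprinted gene is transcribed mainly from the copy inherited from one parent, because the other copy carries a repressive DNA methylation mark or lies under the control of a methylated region nearby. These marks are set in the germ line and are kept in later divisions by DNA methyltransferases and by KRAB zinc finger proteins such as ZFP57 with their partner TRIM28. Many imprinted genes act on growth, and a subset is known to be expressed together in developing tissues with the zinc finger protein PLAGL1 (ZAC1) as a regulator. ATRX and DAXX deposit histone H3.3 in heterochromatin, and ATRX is known to bind at several imprinted regions. The libraries measured RNA, and neither the parental copy nor DNA methylation was read.

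The members fall in 8 places of the genome. On build GRCh37, PLAGL1 spans chr6:144261437-144385736 on the minus strand. IGF2 (chr11:2150342-2179621) and the noncoding RNA gene H19 (chr11:2016396-2025782) share 1 domain, both on the minus strand. MEG3 (chr14:101245747-101327368), a noncoding RNA gene, and DLK1 (chr14:101192042-101204561) share another, both on the plus strand. GRB10 (chr7:50657760-50861159, minus), PEG10 (chr7:94285637-94299007, plus) and MEST (chr7:130126012-130146306, plus) lie far apart on chromosome 7. PEG3 spans chr19:57321445-57352096 on the minus strand and NNAT chr20:36149608-36152092 on the plus strand. Each whole gene, exons and introns together, is given.

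Sequence around the starts of 5 members was found in RefSeq (GRCh38.p14), and no window was found for IGF2, PEG10, PEG3, DLK1 and NNAT. Each window runs from 250 bases before a start to 50 bases after it. One start is shown for each of the 3 members with a window that changed in both knockouts, the one with the most matches to TGCCGC or its complement GCGGCA, the letters that ZFP57 is known to bind when methylated. Capitals mark those matches, which may overlap each other. The ZFP57 gene itself held 0 or 1 counts per library.
PLAGL1, chr6:144008210-144008509, minus strand: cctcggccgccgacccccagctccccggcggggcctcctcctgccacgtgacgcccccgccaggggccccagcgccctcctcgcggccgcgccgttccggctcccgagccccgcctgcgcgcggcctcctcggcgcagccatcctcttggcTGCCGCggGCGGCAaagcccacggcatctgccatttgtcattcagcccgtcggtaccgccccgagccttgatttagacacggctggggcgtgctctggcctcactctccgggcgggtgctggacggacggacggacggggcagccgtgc
GRB10, chr7:50793404-50793703, minus strand: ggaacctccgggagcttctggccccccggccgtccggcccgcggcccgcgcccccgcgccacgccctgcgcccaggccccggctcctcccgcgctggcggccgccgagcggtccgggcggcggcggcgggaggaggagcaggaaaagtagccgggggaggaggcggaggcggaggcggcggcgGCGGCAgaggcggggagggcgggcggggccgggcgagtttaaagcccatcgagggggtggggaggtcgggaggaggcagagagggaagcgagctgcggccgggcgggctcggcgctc
MEST, chr7:130491835-130492134, plus strand: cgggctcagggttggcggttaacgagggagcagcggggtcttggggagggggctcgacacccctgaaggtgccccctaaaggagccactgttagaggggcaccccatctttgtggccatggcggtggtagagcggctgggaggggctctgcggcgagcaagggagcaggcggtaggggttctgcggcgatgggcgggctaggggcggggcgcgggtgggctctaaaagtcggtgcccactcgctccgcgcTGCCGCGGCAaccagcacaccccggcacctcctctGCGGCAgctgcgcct
The PLAGL1 window held 39 CpG and 2 matches, and it also held 1 copy of GGGGCCCC (its own complement), a GC-rich palindrome that PLAGL1 itself is known to bind. The GRB10 window held 44 CpG and 1 match, and the MEST window 25 CpG and 3 matches, 2 of them overlapping. Over all 35116 windows of the same length, the median was 14 CpG, 16.7% held at least 1 TGCCGC match on either strand, 2.75% held at least 2, and 1.95% held GGGGCCCC. PLAGL1 had 4 further starts with 2 to 31 CpG and 0 matches. GRB10 had 4 with 3 to 49 CpG and 0 matches, and MEST had 4 with 13 to 22 CpG and 0 to 2 matches. Because the shown starts were picked for their matches, nothing is read from setting them beside the shares over all windows. The libraries read the 3′ ends of transcripts, so the counts do not tell which start was used.

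Library totals ran from 6928950 counts in DAXX_KO to 13298557 in WT cells of the ATRX series. Levels are given in CPM, which are counts scaled to the size of the library with TMM factors. A sum of 3 counts over the libraries of a group, the most that a sum of 0 allows, was 0.0791 to 0.136 CPM. Such limits and all count intervals cover counting error only, as the reads carried no molecular identifiers. Since the labels do not say that the libraries of a group were separate cultures, p-values measure the spread between these libraries, which may be technical. A gene was called at an adjusted p under 0.05 in edgeR's quasi-likelihood test with Benjamini-Hochberg adjustment over all genes tested, and this test gave every adjusted p in the text. DAXX mRNA fell by 2.53 in DAXX_KO against WT control cells on the log2 scale (SE 0.15, adjusted p = 7.34e-11), and ATRX mRNA fell by 1.25 in ATRX_KO (SE 0.09, adjusted p = 9.38e-09). For the DAXX_KO libraries a genotype tag names ATRX, and their titles were followed. Libraries of 1 group were compared with each other. The most distant was ATRX_KO with etoposide, replicate 1, with an SD of 0.292 in log2 CPM against the other 2 over 9542 genes, where the WT libraries had 0.159 to 0.189.

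The glioblastoma label was checked against 8 markers. VIM, CD44, NES, FN1 and TNC had at least 183 counts in every library, whereas GFAP had 0 to 6, OLIG2 0 to 17 and SOX2 0 to 59. The summed level of these markers was 2249 to 3348 CPM with etoposide and 4533 to 7478 CPM in control cells. Of 7 markers of blood, endothelium, epithelium and neurons, CD68 had 174 to 453 counts, CD3E and CDH5 had at most 3, and the 6 without CD68 summed to 0.805 to 6.89 CPM. Their part in the results was not tested.

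PLAGL1 and GRB10 were higher and IGF2, PEG10 and MEST lower in both knockouts than in WT control cells. These 5 members were the ones tested in both series. The filter on low counts kept 5 of 10 members for the DAXX libraries and 6 for the ATRX libraries, where H19 was added. DAXX_KO changed 5 of the 5 tested (2 higher and 3 lower), beside 53.4% of 15247 genes tested (26.7% higher and 26.6% lower). ATRX_KO changed 5 of the 6 tested (2 higher and 3 lower), beside 41.8% of 16371 genes (20.8% higher and 21% lower). These shares cannot be read as those of all members, because PLAGL1 passed the filter through the KO libraries and IGF2 through the WT libraries, and such genes had to differ. GRB10, PEG10 and MEST had at least 10 counts in all 24 libraries.

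**Figure D1:**
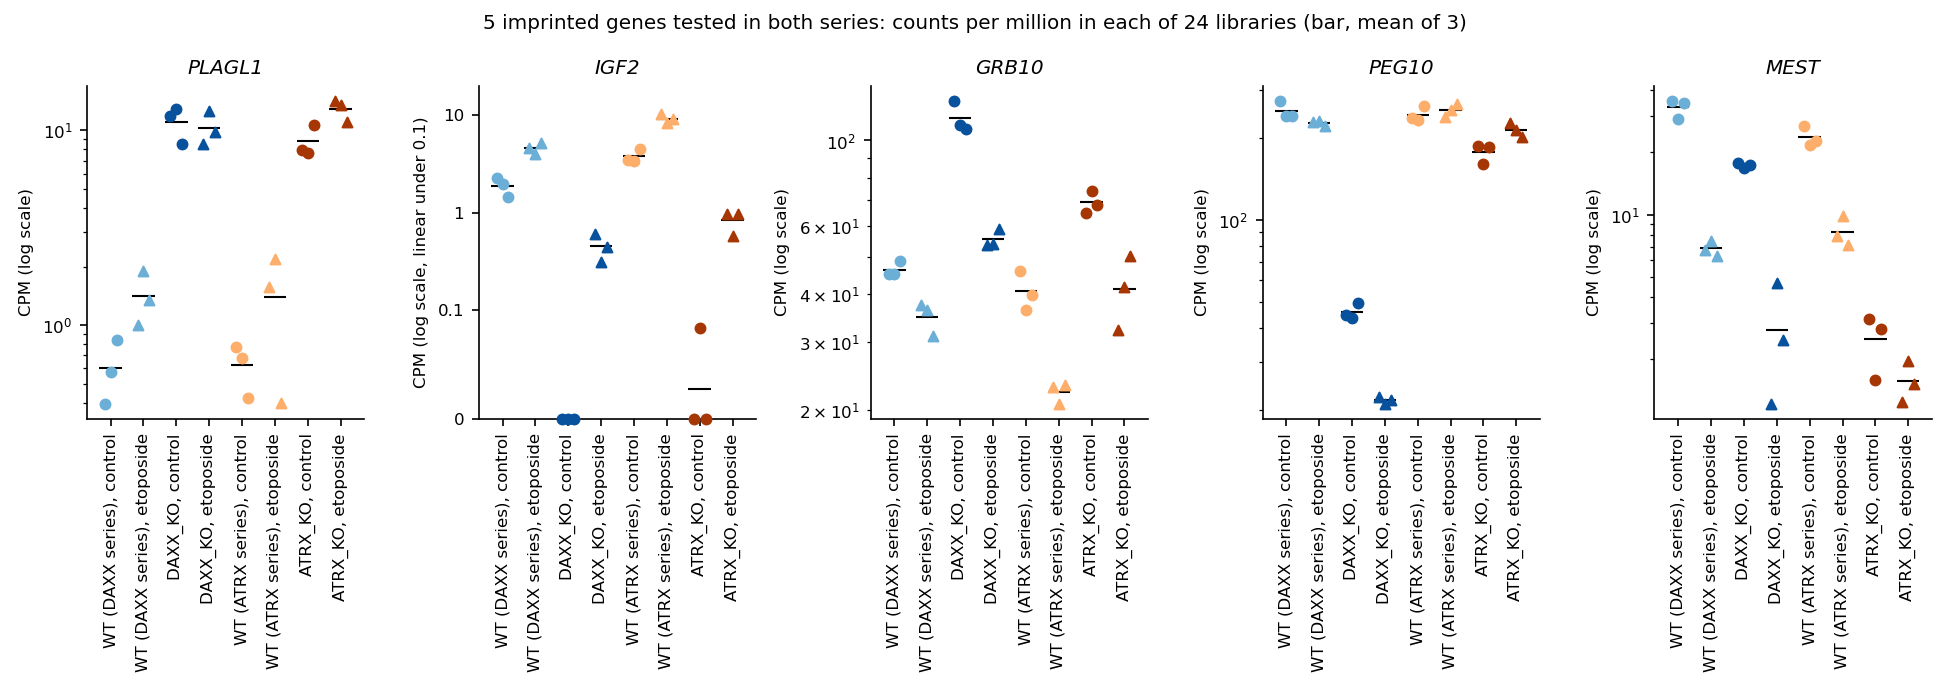
Level of 5 imprinted genes (vertical axis, CPM on a log scale, for IGF2 linear under 0.1) in each library of the 8 groups (horizontal axis), with circles for control cells, triangles for etoposide and a bar for the mean of 3 libraries. PLAGL1 was at 0.396 to 0.840 CPM in WT control cells and at 7.69 to 12.9 CPM in the KO control cells, and IGF2 was at 0 in 5 of the 6 KO control libraries.

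PLAGL1 encodes a zinc finger transcription factor that holds back the cell cycle and is made from the paternal copy. In WT control cells it was at 0.396, 0.575 and 0.840 CPM in the DAXX series and at 0.777, 0.678 and 0.423 CPM in the ATRX series, from 4 to 10 counts per library. DAXX_KO cells had 11.8, 12.9 and 8.53 CPM, and ATRX_KO cells had 7.91, 7.69 and 10.7 CPM. Every KO library was above every WT library of its series. PLAGL1 rose 18.3-fold in DAXX_KO, by 4.19 on the log2 scale (SE 0.32, adjusted p = 1.59e-09). The rise in ATRX_KO was 13.7-fold, or 3.78 (SE 0.36, adjusted p = 2.5e-07). The difference between both effects was 0.43 on the log2 scale with an SE of 0.60 (adjusted p = 0.638), so a difference of this size could not be told from the spread.

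IGF2 encodes an insulin-like growth factor that signals through IGF1R and is made from the paternal copy. The WT control libraries of the DAXX series held 23, 17 and 12 counts (2.28, 1.95 and 1.44 CPM), and the 3 DAXX_KO libraries held 0. Those of the ATRX series held 45, 40 and 54 counts (3.50, 3.39 and 4.57 CPM), and the ATRX_KO libraries held 0, 1 and 0. Expression was therefore at least 15.3-fold lower in DAXX_KO, with 3 counts over the group as the floor. In ATRX_KO it was 137-fold lower, with a 95% counting interval of 24.3 to 5467. The adjusted p was 2.42e-06 and 3.5e-08. The fitted log2 fold changes of these near-empty groups, -7.02 and -6.64, depend on the prior count.

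Reads at the 3′ end of IGF2 were divided between 2 rows of the table. ENSG00000240801, a noncoding gene at chr11:2150351-2151194 (GRCh37) on the same strand, lies inside IGF2, and it held 888 counts over all libraries where IGF2 held 637. Its level was 3.38 ± 0.61 CPM (SD, n = 3) in WT control cells and 0.169 ± 0.081 in DAXX_KO, and 5.87 ± 0.35 and 0.0279 ± 0.0482 in the ATRX series. It fell by 4.23 on the log2 scale in DAXX_KO (adjusted p = 1.41e-06) and by 7.26 in ATRX_KO (adjusted p = 2.93e-09). Both rows together went from 5.28 ± 1.01 to 0.169 ± 0.081 CPM in the DAXX series and from 9.68 ± 0.34 to 0.0557 ± 0.0965 CPM in the ATRX series. IGF2-AS, on the opposite strand, held 0 to 5 counts and INS-IGF2 0 or 1.

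GRB10 encodes an adaptor that binds the insulin and IGF1 receptors and dampens their signals, and its imprinting is known to depend on the tissue. WT control cells had 44.9, 45.1 and 48.6 CPM in the DAXX series, and DAXX_KO cells had 126, 110.0 and 107 CPM. In the ATRX series, WT control cells had 45.8, 36.4 and 39.7 CPM, and ATRX_KO cells had 65.0, 74.1 and 68.2 CPM. The groups did not overlap in either series. On the log2 scale GRB10 rose by 1.31 in DAXX_KO (SE 0.09, adjusted p = 2.34e-10) and by 0.77 in ATRX_KO (SE 0.13, adjusted p = 0.000112). The rise was larger in DAXX_KO by 0.55 (SE 0.16, adjusted p = 0.00873).

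PEG10 and MEST, which both lie on the long arm of chromosome 7 and are both made from the paternal copy, fell unequally. PEG10 derives from a retrotransposon and encodes a Gag-like protein, with a known role in the placenta. It had 273, 241 and 241 CPM in WT control cells (DAXX series) and 44.6, 43.6 and 49.6 CPM in DAXX_KO, and it fell by 2.45 on the log2 scale (SE 0.08, adjusted p = 7.5e-15). In the ATRX series it had 237, 233 and 262 CPM in WT and 187, 161 and 185 CPM in ATRX_KO, and it fell by 0.46 (SE 0.08, adjusted p = 0.000201). Again no KO library reached the WT range. MEST encodes an enzyme-like protein of the alpha/beta hydrolase fold.

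For MEST the order of the knockouts was the other way round. Its WT control libraries had 35.4, 29.1 and 34.7 CPM in the DAXX series, and those of DAXX_KO 17.8, 16.9 and 17.4 CPM. In the ATRX series, WT libraries had 27.0, 21.6 and 22.8 CPM and ATRX_KO libraries 3.13, 1.59 and 2.78 CPM. MEST thus changed by -0.93 (SE 0.17, adjusted p = 0.000148) with DAXX lost and by -3.25 (SE 0.21, adjusted p = 3.12e-09) with ATRX lost, on the log2 scale. Tested over all 24 libraries, the DAXX effect minus the ATRX effect was -1.99 for PEG10 (SE 0.11, adjusted p = 1.24e-13) and 2.32 for MEST (SE 0.30, adjusted p = 9.98e-07). GRB10, PEG10 and MEST were thus the 3 of 5 members whose knockout effects differed in control cells, beside 34.1% of 16674 genes. PLAGL1 and IGF2 had no called difference. The row inside IGF2, ENSG00000240801, had one (2.94, SE 1.13, adjusted p = 0.0484), and both rows summed had none (2.27, adjusted p = 0.105).

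**Figure D2:**
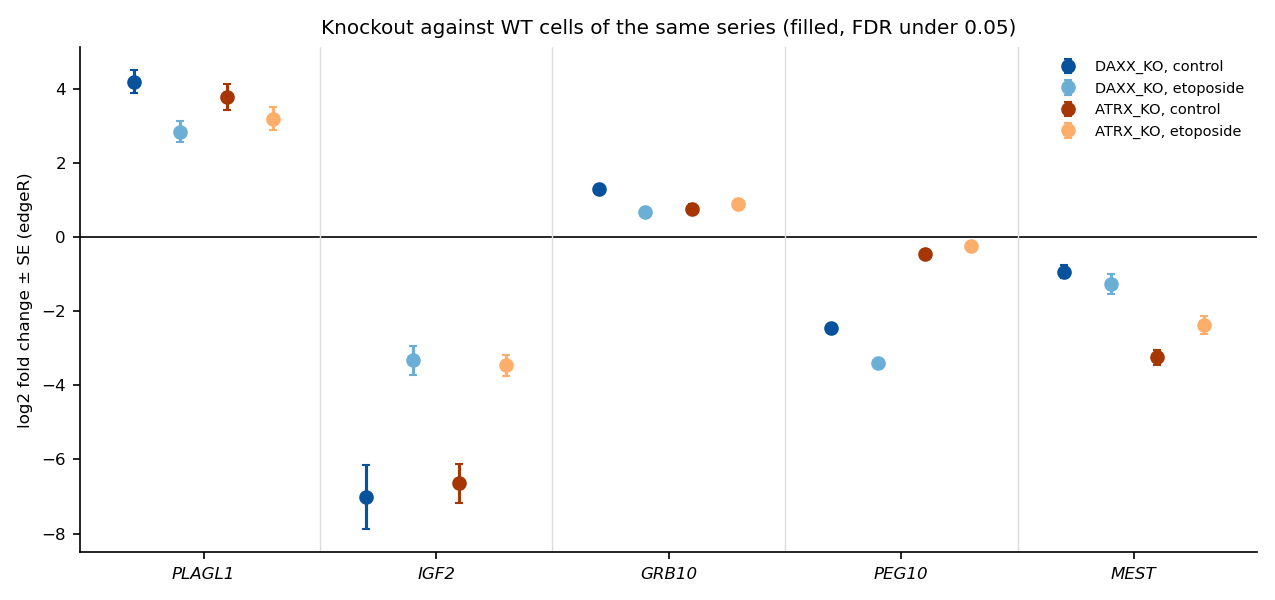
Fitted log2 fold change of 5 imprinted genes in KO against WT cells of the same series (vertical axis, ± SE), in control cells and with etoposide, with filled points for an adjusted p under 0.05. PLAGL1 and GRB10 lie above 0 and the other genes below it in all 4 comparisons, and the IGF2 values of control cells (-7.02 and -6.64) come from groups with 0 and 1 counts.

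Genes near the members had smaller median changes. The 60 tested genes nearest to PLAGL1 had median log2 fold changes of 0.20 (DAXX_KO) and 0.26 (ATRX_KO), and 0 and 3 of them were above PLAGL1. Around IGF2 the medians were 0.32 and 0.03, and 0 and 1 were below it, the 1 being ENSG00000240801. Around PEG10 they were -0.06 and 0.08, with 1 and 10 below it. MEST had medians of 0.44 and 0.11, with 3 and 2 below it, and GRB10 had 0.13 and 0.03, with 3 and 10 above it. The smaller changes of GRB10 in ATRX_KO and of PEG10 in ATRX_KO were thus passed by 10 of their 60 neighbours.

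Genes that overlap or adjoin a member moved in part. SGCE, the paternally expressed neighbour of PEG10 on the opposite strand, changed by -0.89 in DAXX_KO (adjusted p = 0.000661) and -0.61 in ATRX_KO (adjusted p = 0.0155) on the log2 scale. COPG2, which overlaps the end of MEST from the opposite strand, had -0.17 and -0.22 and was not called. ENSG00000270953, which lies just past the end of MEST and was picked after its values were seen, fell by 1.503 and 4.79 on the log2 scale (adjusted p = 0.0032 and 1.15e-05). MESTIT1 held at most 3 counts, and ENSG00000270823, opposite MEST, at most 6. BLCAP, around NNAT, had 295 to 1019 counts in libraries where NNAT had 0 to 13. ZIM2, which spans PEG3, held 0 or 1, as did MIR493HG, which overlaps the end of MEG3. The microRNA genes MIR483, MIR335, MIR770 and MIR2392 and the unnamed ENSG00000217231 and ENSG00000258663 held 0. The strand setting of the counting was not given in the sources used here.

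**Figure D3:**
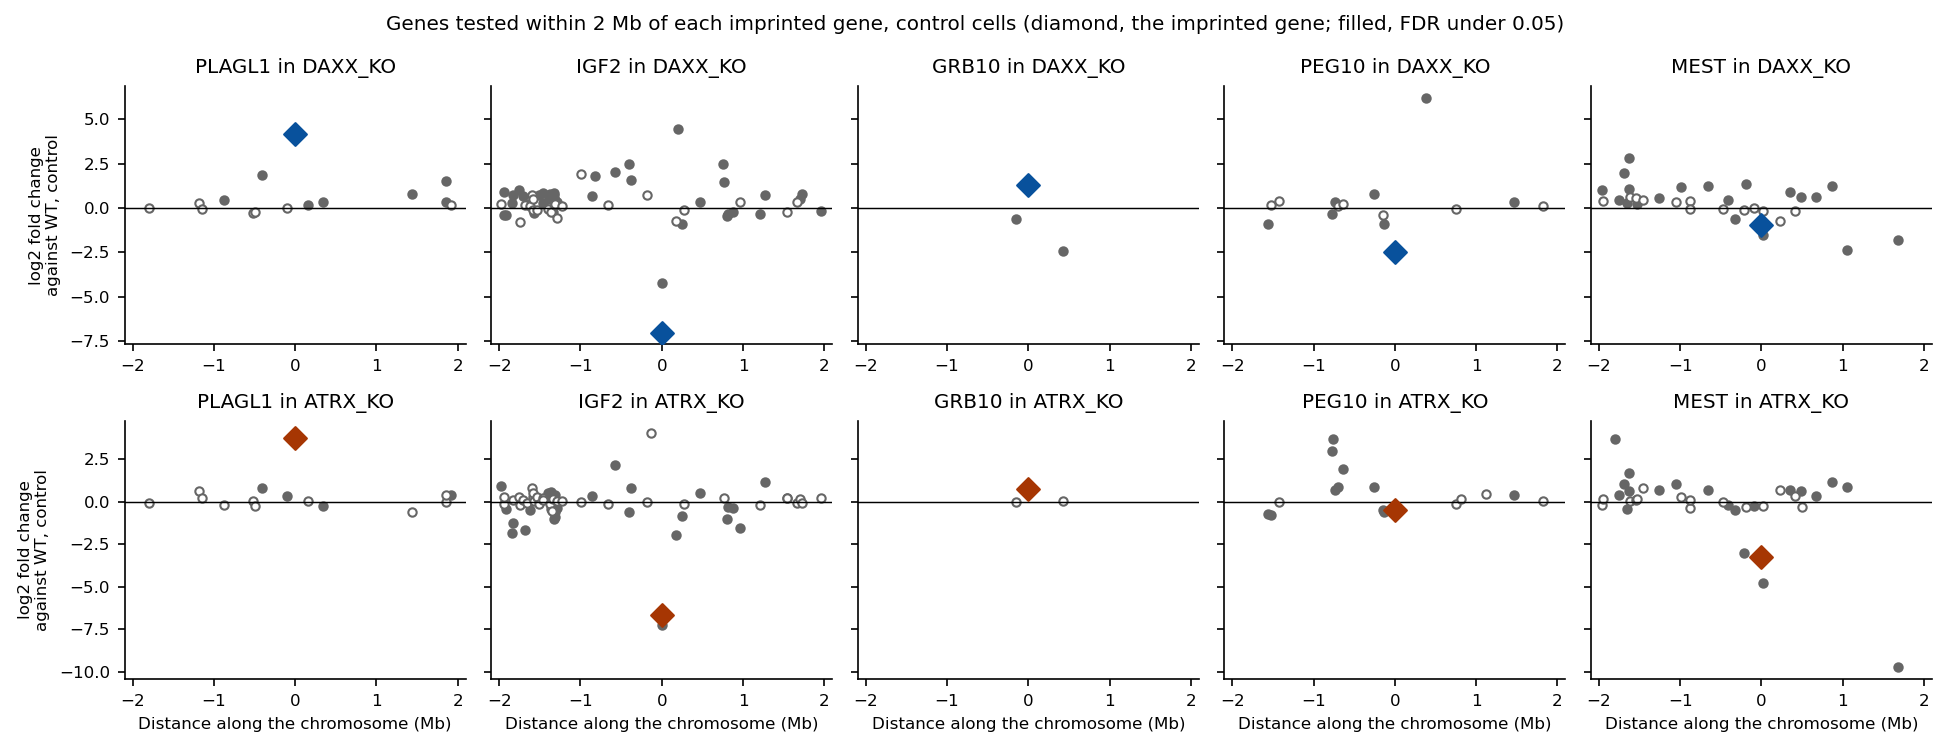
Log2 fold change of every tested gene within 2 Mb of 5 imprinted genes (vertical axis), by distance along the chromosome in Mb (horizontal axis), in DAXX_KO (top) and ATRX_KO (bottom) against WT control cells. Diamonds are the imprinted genes and filled points have an adjusted p under 0.05. PLAGL1 (4.19 and 3.78) stands above all genes drawn with it, and GRB10 has 2 neighbours in the window.

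With etoposide, the same 5 members kept their directions in the knockouts. DAXX_KO changed 5 of 5 tested members (2 higher and 3 lower), beside 53% of all genes (27.9% higher and 25.2% lower). ATRX_KO changed 6 of 6 (3 higher and 3 lower), beside 45.9% (23% higher and 22.9% lower). The sixth was H19, which passed the filter only through ATRX_KO with etoposide, the group where it was high, so nothing is read from this share. PLAGL1 had 1.00, 1.90 and 1.35 CPM in WT (DAXX series) and 8.51, 12.5 and 9.83 CPM in DAXX_KO, higher by 2.84 on the log2 scale (SE 0.28, adjusted p = 6.1e-08). In the ATRX series it had 1.57, 2.19 and 0.401 CPM in WT and 14.1, 13.6 and 11.1 CPM in ATRX_KO, a change of 3.19 (SE 0.32, adjusted p = 3.84e-07). GRB10 rose by 0.67 in DAXX_KO (SE 0.09, adjusted p = 5.27e-06) and by 0.89 in ATRX_KO (SE 0.14, adjusted p = 4.24e-05) on the log2 scale, and these effects had no called difference (adjusted p = 0.292).

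The lower members stayed apart as well. IGF2 had 37, 34 and 39 counts in WT and 5, 3 and 4 in DAXX_KO, and 113, 87 and 91 counts in WT and 11, 8 and 13 in ATRX_KO. It was 10.3-fold lower in DAXX_KO (95% counting interval 5.68 to 20.6) and 11.2-fold lower in ATRX_KO (7.73 to 16.6), with adjusted p of 2.01e-06 and 5.46e-08. PEG10 went from 229, 231 and 221 CPM to 22.4, 21.1 and 21.8 CPM in the DAXX series, and it fell by 3.38 on the log2 scale (SE 0.08, adjusted p = 3.2e-16). It differed little in the ATRX series, with 239, 254 and 267 CPM in WT and 227, 214 and 203 CPM in ATRX_KO (log2 fold change -0.24, SE 0.08, adjusted p = 0.0218). This small change was lost when libraries were scaled by their totals alone (-0.14, adjusted p = 0.171) and in 4 of 12 fits with 1 library left out. These were the fits without replicate 2 or 3 of WT with etoposide (-0.21 and -0.17) or of ATRX_KO with etoposide (-0.23 and -0.20).

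MEST had 6.76, 7.48 and 6.33 CPM in WT with etoposide and 1.22, 4.65 and 2.46 CPM in DAXX_KO, a change of -1.27 on the log2 scale (SE 0.27, adjusted p = 0.000556). In the ATRX series it had 7.85, 9.82 and 7.11 CPM in WT and 1.24, 1.95 and 1.505 CPM in ATRX_KO, a change of -2.38 (SE 0.24, adjusted p = 5.02e-07). The difference between the knockouts was -3.17 for PEG10 (SE 0.11, adjusted p = 3.89e-17). For MEST it was 1.09 (SE 0.40, adjusted p = 0.0353). This call was lost with centring on neighbouring genes (0.76, adjusted p = 0.173) and in 6 of 24 fits with 1 library left out. Among these, the fit without replicate 2 of DAXX_KO, the library at 4.65 CPM, gave 0.47 (adjusted p = 0.386). The others were the fits without replicate 1 or 3 of WT in the DAXX series (1.07 and 1.02), replicate 2 of WT in the ATRX series (0.94) or replicate 1 or 3 of ATRX_KO (0.95 and 1.05), all with etoposide. PEG10 and MEST were 2 of 5 members, beside 34.5% of all genes. IGF2 was not called (0.10, adjusted p = 0.926), but it was called when summed with ENSG00000240801 (1.02, adjusted p = 0.0433). GRB10 was called without replicate 1 of ATRX_KO with etoposide (-0.39, adjusted p = 0.0448).

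Etoposide itself moved the members in both directions. In WT cells it raised PLAGL1 and IGF2 and lowered GRB10 and MEST in each series. These were 4 of 5 tested members in the DAXX series (2 higher and 2 lower), beside 60.2% of all genes (29.6% higher and 30.6% lower). They were 4 of 6 in the other series (2 higher and 2 lower), beside 61.5% (31.7% higher and 29.8% lower). MEST fell by 2.26 (SE 0.20, adjusted p = 6.08e-09) and by 1.52 (SE 0.19, adjusted p = 1.95e-06) on the log2 scale. IGF2 rose 2.43-fold in both series (log2 fold change 1.28, adjusted p = 0.00236 and 0.000191). GRB10 decreased by 0.40 (adjusted p = 0.00107) and 0.86 (adjusted p = 3.28e-05). PEG10 was not called, at -0.15 and 0.06, although centring on neighbouring genes made the first a call (-0.25, adjusted p = 0.0105).

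The rise of PLAGL1 in WT cells rested on few reads. It was 1.25 (SE 0.44, adjusted p = 0.0185) in the DAXX series, and it missed the threshold without replicate 1 of WT control or replicate 2 of WT with etoposide, at 1.01 and 0.97. In the ATRX series it was 1.14 (SE 0.46, adjusted p = 0.0414), the groups overlapped, and the call was lost in 5 of 12 fits with 1 library left out. These were the fits without replicate 2 or 3 of WT control (1.19 and 0.92), replicate 1 or 2 of WT with etoposide (1.03 and 0.65) or replicate 2 of ATRX_KO with etoposide (1.13).

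**Figure D4:**
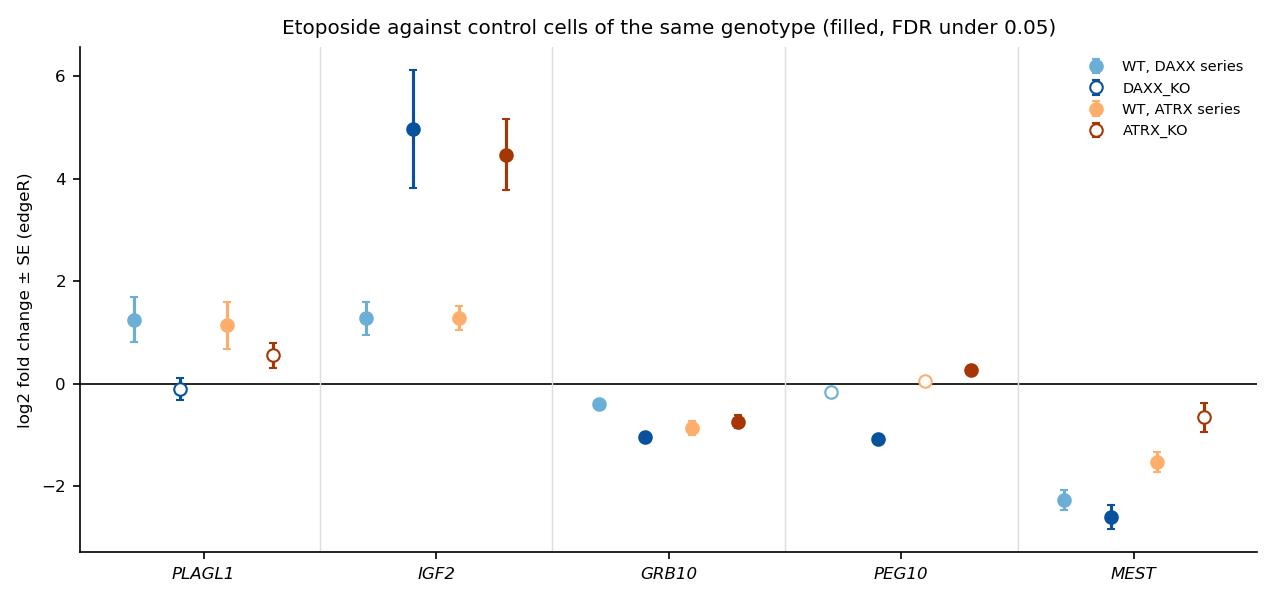
Fitted log2 fold change of 5 imprinted genes with etoposide against control cells of the same genotype (vertical axis, ± SE), with filled points for an adjusted p under 0.05. GRB10 and MEST lie below 0 in all 4 comparisons, and PEG10 is near 0 in WT (-0.15 and 0.06), at -1.08 in DAXX_KO and at 0.27 in ATRX_KO.

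In DAXX_KO, etoposide changed 4 of 5 members (1 higher and 3 lower), beside 54.5% of all genes (26.8% higher and 27.8% lower). PEG10 fell by 1.08 (SE 0.09, adjusted p = 3e-09), GRB10 by 1.04 (SE 0.08, adjusted p = 3.9e-09) and MEST by 2.60 (SE 0.24, adjusted p = 1.85e-08) on the log2 scale. IGF2 went from 0 to 12 counts over the group (adjusted p = 0.00134). This was 3.56-fold with the control group set to 3 counts, and the 95% counting interval began at 2.48-fold. PLAGL1 had no called response (-0.10, SE 0.21, adjusted p = 0.708). The response differed from that of WT cells for 2 of 5 members, beside 14.2% of all genes. These were PEG10, with an interaction of -0.93 (SE 0.11, adjusted p = 1.21e-05), and GRB10, with -0.65 (SE 0.13, adjusted p = 0.00171). The interaction of IGF2, fitted at 3.70 from a control group at 0 counts, missed the threshold (SE 1.25, adjusted p = 0.0584). That of PLAGL1 missed it too (-1.35, SE 0.48, adjusted p = 0.0696). PLAGL1 was called with centring on neighbouring genes (-1.46, adjusted p = 0.0482), without replicate 3 of DAXX_KO control (-1.52, adjusted p = 0.0385) and without replicate 2 of DAXX_KO with etoposide (-1.52, adjusted p = 0.0396). The last of these fits also called MEST (-0.95, adjusted p = 0.0337).

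In ATRX_KO, etoposide changed 4 of 6 members (3 higher and 1 lower), beside 49.5% of all genes (24.3% higher and 25.2% lower). One of the higher members was H19, which entered the test only through ATRX_KO with etoposide, the group where it was high, so nothing is read from this share. GRB10 fell by 0.74 (SE 0.13, adjusted p = 0.000116), and PEG10 rose by 0.27 (SE 0.08, adjusted p = 0.00891) on the log2 scale. The call of PEG10 was lost when it was centred on its neighbouring genes (0.13, adjusted p = 0.228) and without replicate 2 of ATRX_KO control (0.20). IGF2 went from 1 to 32 counts over the group, a 30.05-fold rise with a counting interval of 5.02 to 1223 (adjusted p = 4.55e-05). PLAGL1 (0.56, SE 0.25, adjusted p = 0.0732) and MEST (-0.65, SE 0.28, adjusted p = 0.0590) missed the threshold. IGF2 was the 1 of 6 members with a called difference of response from WT cells, beside 16% of all genes, with a fitted interaction of 3.19 that depends on the prior count (SE 0.80, adjusted p = 0.0128). The interaction of ENSG00000240801, the row inside IGF2, was not called (1.87, SE 0.87, adjusted p = 0.204).

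The other 5 members were at or near the limit of detection. MEG3, the noncoding RNA made from the maternal copy opposite DLK1, had 0 to 5 counts in WT control libraries and 0 or 1 in KO control libraries. With etoposide it had 26 counts over the WT group of the DAXX series against 7 in control cells, a ratio of 4.23 (95% counting interval 1.79 to 11.5), and 18 against 7 in the ATRX series, a ratio of 3.00 (1.19 to 8.49). In DAXX_KO the sums were 8 against 1 and in ATRX_KO 16 against 1. Sums with etoposide were thus the higher ones in each of the 4 comparisons, 1 for WT and 1 for KO cells of each series. MEG3 was in no test with the filter.

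H19, the noncoding RNA made from the maternal copy of the IGF2 domain, was seen mostly with etoposide. Control sums over 3 libraries were 1 in WT of the DAXX series, 0 in DAXX_KO, 0 in WT of the ATRX series and 6 in ATRX_KO. With etoposide they were 15, 16, 4 and 33. In single libraries of ATRX_KO, H19 had 3, 3 and 0 counts in control cells and 9, 11 and 13 with etoposide. It passed the filter in the ATRX series through the last of these groups, and was called higher there than in control cells (2.29, SE 0.83, adjusted p = 0.0330) and than in WT with etoposide (2.65, SE 0.90, adjusted p = 0.0261). Both calls were lost with DESeq2 (2.36, adjusted p = 0.143, and 2.76, adjusted p = 0.100007). The first was lost without any 1 of the 6 ATRX_KO libraries (1.70 to 2.70), and the second without replicate 1 or 3 of WT with etoposide (2.11 and 2.16) or replicate 2 or 3 of ATRX_KO with etoposide (2.71 and 2.55). In control cells ATRX_KO was not called against WT (adjusted p = 0.0897), except without replicate 3 of ATRX_KO (adjusted p = 0.0430).

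DLK1, a membrane ligand related to the Notch ligands, had 0 to 4 counts per library and 30 over all 24. PEG3, a zinc finger gene of the paternal copy, had 0 to 4 counts and 17 in all. NNAT, which encodes a small membrane protein of the developing brain, had 0 to 13 counts and 65 in all. The highest value of NNAT was in DAXX_KO with etoposide, where the other 2 libraries were lower and the sum was 16. These genes did not pass the filter, so no difference between genotypes was tested with it. In ATRX_KO the sums went with etoposide from 0 to 7 for DLK1, from 1 to 8 for PEG3 and from 0 to 12 for NNAT. For none of these genes was a sum lower with etoposide in WT or KO cells of either series. Without the filter, the median log2 fold change with etoposide over all genes was 0.15 (DAXX series) and 0.11 (ATRX series) in WT. It was 0.03 in DAXX_KO and 0.19 in ATRX_KO. How often other genes with so few reads rose was not counted. The rises of MEG3, H19 and these genes are therefore not read as a trait of the members. For PEG3 the sums were 0 in DAXX_KO with and without etoposide, which allows up to 0.113 and 0.136 CPM.

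**Figure D5:**
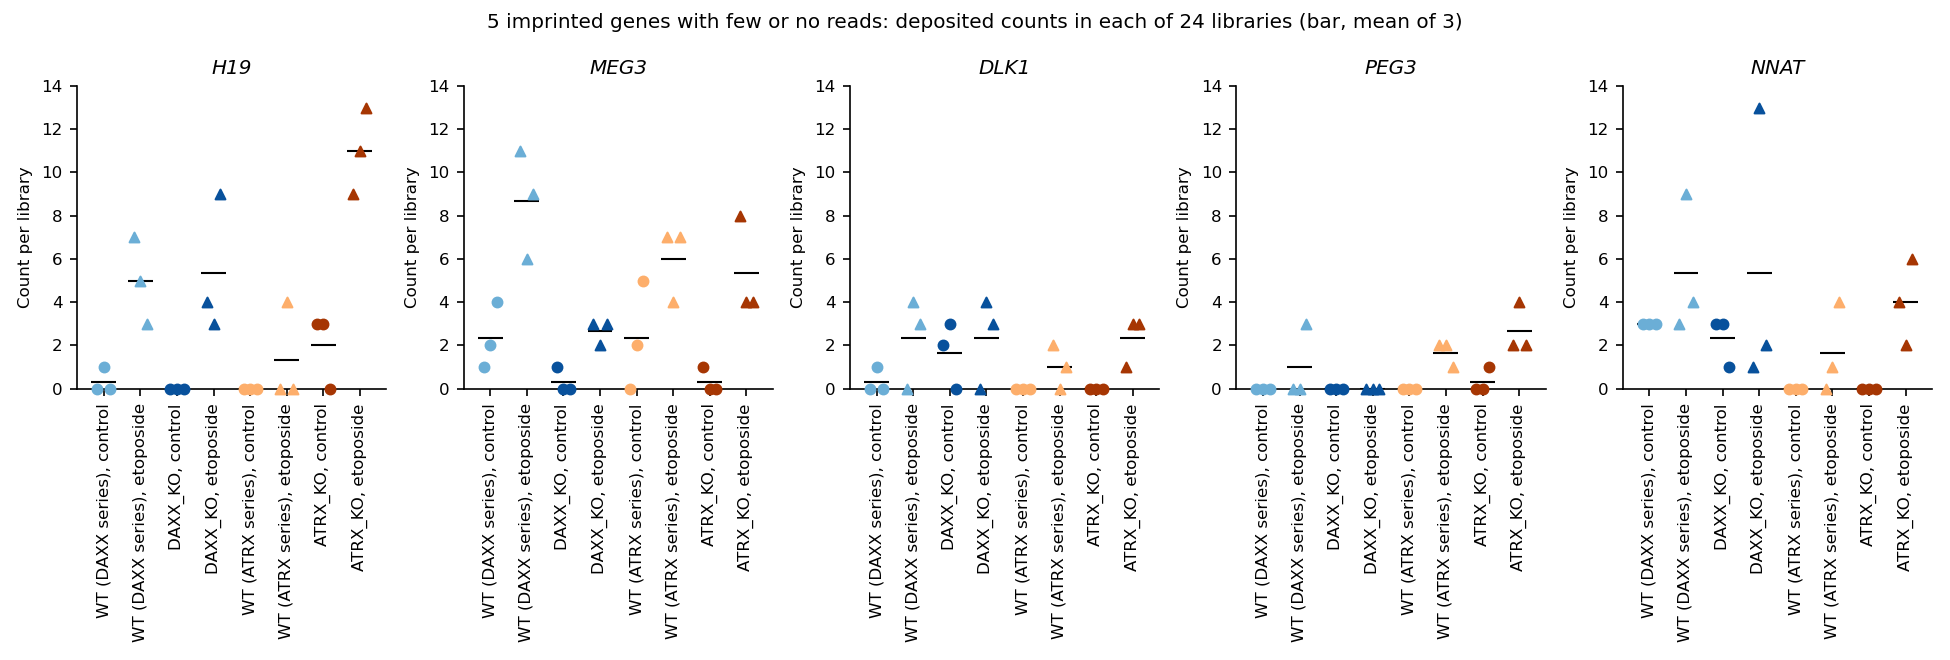
Deposited counts of 5 imprinted genes with few reads (vertical axis, counts per library) in the 8 groups (horizontal axis), with circles for control cells, triangles for etoposide and a bar for the mean of 3 libraries. No library holds more than 13 counts, and H19 in ATRX_KO with etoposide (9, 11 and 13) is the one group of H19 with at least 9 in each library.

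WT control cells of the DAXX series and of the ATRX series differed in 1 of 5 members, beside 13.2% of all genes. This was IGF2, lower in the DAXX series by -0.96 on the log2 scale (SE 0.28, adjusted p = 0.0241). The call was lost without replicate 2 (-0.97) or 3 (-0.80) of the WT control libraries of the DAXX series or replicate 3 of those of the ATRX series (-0.81). PLAGL1, GRB10, PEG10 and MEST had no called difference, and MEST was the nearest to it (0.52, adjusted p = 0.0580).

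Other imprinted genes outside the network were counted in a list of 54, of which 48 matched a row. In DAXX_KO control cells 9 were higher and 9 lower of 25 tested (beside 53.4% of all genes called), with a median size of 0.78 on the log2 scale, where it was 0.44 over all genes. In ATRX_KO 7 were higher and 3 lower of 27 tested (beside 41.8%), with a median size of 0.31 where it was 0.36. Among those called in both, L3MBTL1 (0.78 and 0.85) and IGF2R (0.81 and 0.44), the receptor that clears IGF2, were higher, whereas SGCE (-0.89 and -0.61) and PHLDA2 (-0.45 and -1.03), a growth-restraining gene of the cluster next to IGF2, were lower. DIRAS3, a Ras-like growth inhibitor made from the paternal copy, went from 12.6 ± 1.49 CPM (SD, n = 3) to 17.3 ± 4.32 in DAXX_KO (0.46) and from 19.8 ± 1.96 to 0.698 ± 0.159 in ATRX_KO (-4.82). ZDBF2 was lower in DAXX_KO (-0.49) and higher in ATRX_KO (0.87). The DAXX effect minus the ATRX effect was 5.27 for DIRAS3 (adjusted p = 1.75e-12) and -1.36 for ZDBF2 (adjusted p = 1.54e-06).

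TFPI2, an inhibitor of proteases near PEG10 that was picked after its values were seen, was at 614 ± 14.8 CPM (SD, n = 3) in WT and 4878 ± 1462 CPM in ATRX_KO (2.99, adjusted p = 2.91e-10), and it was lower in DAXX_KO (-0.35, adjusted p = 2.99e-05). The difference was -3.34 (adjusted p = 1.02e-13). In the MEG3 and DLK1 cluster, MEG8 had -0.08 and 0.13 and was not called. In the cluster next to IGF2, which holds PHLDA2, KCNQ1OT1, an antisense noncoding RNA, was higher in both (0.33 and 0.54). CDKN1C, a cell cycle inhibitor of that cluster, had 0 to 4 counts and was not tested. CPA4, near MEST, was higher in DAXX_KO (1.34, adjusted p = 7.77e-09) and had -0.31 in ATRX_KO (adjusted p = 0.0606).

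Of 17 genes that set or keep imprints, 16 matched and 15 were tested. ZFP57 held 0 or 1 counts per library and 4 over all 24, too few for a test. In DAXX_KO 6 were higher and 4 lower, beside 53.4% of all genes called, and in ATRX_KO 2 were higher and 2 lower, beside 41.8%. Among those called in both were TRIM28, the corepressor of ZFP57, at -0.69 (adjusted p = 1.98e-05) and -1.24 (adjusted p = 4.57e-08), and the DNA methyltransferase gene DNMT3A at 0.78 and 0.70. TRIM28 stood at 186 ± 25.0 CPM (SD, n = 3) in WT of the DAXX series against 115 ± 19.3 with DAXX lost, and at 262 ± 14.9 and 111 ± 17.6 CPM in the ATRX series.

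In the IGF signalling list, 7 of 9 genes were tested, and 3 were higher and 1 lower in DAXX_KO (beside 53.4% of all genes called), and 5 higher and 1 lower in ATRX_KO (beside 41.8%). The receptor genes IGF1R (0.93 and 0.91) and INSR (1.36 and 1.61) and the substrate gene IRS1 (0.30 and 0.66) were higher in both. IGF2BP2, which binds IGF2 mRNA, was lower in DAXX_KO (-0.34) and higher in ATRX_KO (0.73), a difference of -1.06 (adjusted p = 1.55e-06). Etoposide raised IGF1R in WT cells by 1.51 and 2.02 on the log2 scale, and its responses in the knockouts, 0.08 and 0.30, were not called. The interactions were -1.43 (adjusted p = 0.00108) and -1.72 (adjusted p = 0.000279).

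Of 7 genes known as targets of PLAGL1, 3 were tested in each series. In control cells 2 were higher and 1 lower in each knockout, beside 53.4% (DAXX_KO) and 41.8% (ATRX_KO) of all genes called. With etoposide 1 was higher and 1 lower in DAXX_KO, beside 53%. In ATRX_KO with etoposide 0 were higher and 2 lower, beside 45.9%. CDKN1A, the p21 cell cycle inhibitor, was higher in control cells of both knockouts (0.49 and 0.42), and TCF4 lower (-0.51 and -0.94). PPARG passed the filter in the DAXX series through DAXX_KO, at 0.467 ± 0.232 CPM (SD, n = 3) in WT and 18.5 ± 0.726 in KO (5.23, adjusted p = 5.95e-12). ADCYAP1R1 passed it in the ATRX series, at 0.113 ± 0.196 and 0.659 ± 0.392 CPM (2.48, adjusted p = 0.0203). The 3 targets tested were thus not the same in both series, and PPARG entered through the group where it was high. Nothing is read from the shares of this list. Of the related genes PLAG1 and PLAGL2, both were higher in DAXX_KO control cells (0.41 and 0.66, adjusted p = 0.0369 and 0.00121), beside 53.4% of all genes called. Neither was called in ATRX_KO control cells (0.13 and 0.08), beside 41.8%. With etoposide 1 of the 2 was higher in DAXX_KO and both were higher in ATRX_KO, beside 53% and 45.9%.

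Other genes followed the 8 group means of a member closely. Likeness was measured as the mean absolute difference of log2 CPM over the 8 groups after centring each gene on its own mean, among 16673 genes, and it is a description over groups that share libraries. PLAGL1 was most like CPZ (0.224), PLPP7 (0.23) and DMKN (0.268). IGF2 was most like SDK1 (0.338), TMEM132B (0.343) and CFAP52 (0.376), and GRB10 like CXXC5 (0.105), DENND5B (0.13) and AGTPBP1 (0.149). PEG10 was most like KRT8 (0.221), NCKAP1L (0.229) and NAP1L3 (0.296), and MEST like WNT5B (0.25), TMPRSS15 (0.355) and NMU (0.382). No member was among the 3 nearest genes of another.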

How the data were processed

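RNA was measured in 24 libraries of U87-T cells in 8 groups of 3. The authors made QuantSeq 3′ mRNA libraries, aligned the reads with STAR and deposited estimated counts per gene from RSEM on GRCh37 (hg19), which are whole numbers here and were used without rounding. The sample labels of the submitters' processing notes name RSEM 1.2.3. Symbols and positions were taken from GENCODE 44 on GRCh37, where 55501 of 57736 gene IDs had a symbol (98.8% of the counts).

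Each series of 12 libraries had 1 model of 4 groups, fitted with edgeR 4.0.16 in R 4.3.3 (TMM factors 0.939 to 1.10, filterByExpr at its minimum count 10 and minimum total 15, quasi-likelihood F-test, Benjamini-Hochberg adjustment, threshold 0.05). Comparisons between the series used 1 model of all 24 libraries, so that levels in CPM, which were scaled within a series, were not tested across series. The SE is the absolute log2 fold change divided by the root of F. Count ratios carry exact 95% intervals. The common biological coefficient of variation was 0.0825 and 0.106. Replicates differed by more than counting error, with a chi-square per degree of freedom of 2.16 to 17.1 over 24 pairs, and no libraries were merged. On simulated counts of 15247 genes for the DAXX knockout effect in control cells, 66 of 91 genes changed by 1 on the log2 scale and 102 of 109 changed by 2 were recovered, with 10 false calls.

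Members and gene lists were chosen with earlier results of these data known. Named are all members and, in each list, genes called in control cells of both series (at most 6), PLAG1 and PLAGL2, genes that overlap a member, and the 3 genes most like each member whose group means span at least 2 on the log2 scale. KCNQ1OT1, MEG8, CDKN1C, CPA4, PPARG, ADCYAP1R1 and ZFP57 fall outside this rule and were chosen after their values were seen. A gene that it names is not reported here. Alternatives were DESeq2 1.42.0, RLE size factors, library totals, no filter, at least 10 counts in every library, a replicate block, other sets of libraries, centring on 60 neighbouring genes and leaving out each library. Summing IGF2 with the gene inside it was chosen after seeing the data. Figures were drawn with matplotlib 3.10.9.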

Additional observations from a re-analysis of the deposited data

Results flagged for a closer look

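Effects under the same contrast differed, by a test of the difference itself, for 4 members. In control cells the DAXX effect minus the ATRX effect was 0.55 for GRB10, -1.99 for PEG10 and 2.32 for MEST on the log2 scale. With etoposide it was -3.17 for PEG10 and 1.09 for MEST. The etoposide response in DAXX_KO minus that in WT was -0.65 for GRB10 and -0.93 for PEG10. The same difference in the ATRX series was 3.19 for IGF2, a fitted value that depends on the prior count because ATRX_KO control cells held 1 count. For ENSG00000240801, the row inside IGF2, it was 1.87 and not called.

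Of genes outside the network, the knockout effects in control cells differed by 5.27 for DIRAS3, -1.36 for ZDBF2, -3.34 for TFPI2 and -1.06 for IGF2BP2. The etoposide response of IGF1R was smaller in the knockouts than in WT, by -1.43 (DAXX_KO) and -1.72 (ATRX_KO). Groups of 3 libraries were too small for a check of single outlying libraries.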

How the results depend on the processing

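The knockout effects of PLAGL1, GRB10, IGF2 and MEST kept their direction and their call under each alternative that tested them, in control cells and with etoposide. Requiring at least 10 counts in every library left 3 members to test. It gave 3 called members for each of the 4 knockout effects, 2 for the etoposide response in each WT and in ATRX_KO, and 0 for the ATRX interaction, since fewer genes were tested. Over all genes, this setting called 7018 of 11945 (DAXX) and 5919 of 12705 (ATRX) for the effects in control cells. With etoposide it called 6931 of 11945 and 6465 of 12705. For the responses it called 7979 of 11945 and 8552 of 12705 in WT and 7041 of 12705 in ATRX_KO. It called 2597 of 12705 for the ATRX interaction. Without a filter on low counts, 8 members were called for the response in ATRX_KO, beside 8656 of 32513 genes. For WT against WT 2 were called, beside 2164 of 34654, and DESeq2 also called 2, beside 2283 of 13907. Centring on neighbouring genes gave 1 for the difference of knockout effects with etoposide, beside 4685 of 16674. The cause of the shifts with DESeq2 and with centring was not tested.

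Leaving out 1 library at a time gave 5 called members for the DAXX effect in control cells and 5 to 6 for the ATRX effect. With etoposide it gave 5 to 6 and 4 to 6. It gave 3 to 5 and 3 to 4 for the WT responses, and 4 to 5 and 3 to 5 for the KO responses. The interactions had 2 to 4 and 1, the differences of knockout effects 3 and 1 to 2, and WT against WT 0 to 3. No share over all genes stands beside these ranges, so they only describe how steady the calls were.

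No value that changed sign was called. For PEG10 in the etoposide response of WT cells of the ATRX series, centring gave -0.078, and leaving out 1 library gave -0.0076 to 0.099. Such ranges were -0.27 to 0.021 for PLAGL1 in the response of DAXX_KO, and -1.9995 to 2.30 for H19 and -0.035 to 0.27 for GRB10 in the ATRX interaction. The difference of knockout effects for IGF2 in control cells was 0.63 with DESeq2, 2.27 when summed with ENSG00000240801, and -1.18 to 0.96 without 1 library. With etoposide it was -0.19 with centring, -0.15 to 0.32 without 1 library and 1.02 (adjusted p = 0.0433, a call) when summed, and PLAGL1 ranged from -0.85 to 0.051. PLAGL1 in WT against WT ranged from -0.34 to 0.19.

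Replicate numbers did not pair the libraries, with correlations of deviations from -0.209 to 0.051 over 36 pairs. The replicate block ended 1 call, the etoposide response of PLAGL1 in WT cells of the ATRX series (1.13, adjusted p = 0.0546). The other 5 members were limited by depth.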

Other observations

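Of 6 imprinted genes of the chromosome 15 cluster tested in DAXX_KO control cells, 3 were lower and 1 higher, beside 53.4% of all genes called. The lower ones were the splicing gene SNRPN, the noncoding gene SNHG14 that adjoins it and the ubiquitin ligase gene UBE3A. The log2 fold change was -0.82 for SNRPN (adjusted p = 3.14e-07), -0.87 for SNHG14 (adjusted p = 4.71e-06) and -0.63 for UBE3A (adjusted p = 3.07e-07), while the nearest tested genes of UBE3A had a median of -0.11. NDN, which encodes a growth-restraining protein of neurons, was the higher one, with 8 to 16 counts per library in DAXX_KO and 0 or 1 in WT (adjusted p = 0.000748), and it passed the filter through DAXX_KO. NPAP1 (-0.12) and SNURF (-1.02, adjusted p = 0.0591), which overlaps SNRPN, were not called. In ATRX_KO the values of SNRPN, SNHG14 and UBE3A were 0.25 (adjusted p = 0.0159), 0.06 and -0.04, the last 2 not called. The DAXX effect minus the ATRX effect was -1.06 for SNRPN, -0.92 for SNHG14 and -0.58 for UBE3A, with adjusted p of 7.7e-08, 3.15e-05 and 2.72e-05. These genes were picked after their values were seen, so nothing is read from their share.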
